A study of Mus musculus with 4 samples.

Results

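The comparison described here set mouse embryonic stem cells with an Ldhb knockout (Ldhb_KO) against wild-type cells (WT), gene by gene. Its members were the 12787 of 25170 gene symbols with a value of at least 1 in either library, and each was described by its Ldhb_KO minus WT difference. Of them, 835 reached 1 in Ldhb_KO alone and 210 in WT alone. The series holds 4 libraries of polyadenylated RNA, 1 per group, so there is no replicate check and no p-value, and what is compared is a pair of libraries rather than of conditions. WT is the line E14. The other groups were SO, an inhibitor treatment of cells with the wild-type genotype, and Ldha_KO, a knockout of Ldha. The labels do not say what SO stands for, and the sources used here give neither its dose nor its duration, nor the knockout alleles or the number of clones behind each knockout. Serum medium with LIF and gelatin-coated dishes were used for all 4 groups, and no further treatment is named for the knockouts. The study asked how lactate dehydrogenase and Hdac1 lactylation relate to the 2-cell state.

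Lactate dehydrogenase interconverts pyruvate and lactate and, with them, NADH and NAD+. The enzyme is a tetramer of A subunits, encoded by Ldha, and B subunits, encoded by Ldhb, and the B-rich forms are usually linked to use of lactate rather than its production. Stem cells in culture run a high rate of glycolysis, so genes of glucose use, oxygen sensing and amino acid supply are read out beside the pluripotency network.

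Levels are given in FPKM, fragments scaled by transcript length and library depth, and differences as Ldhb_KO minus WT on the log2(FPKM + 1) scale, which understates the change of low genes. A gene was said to have risen or fallen when its difference reached 1 in size, which is 2-fold on that scale. The deposited values summed to between 471595 and 526316 per library, with Ldhb_KO at 484528, and 11952 to 12577 genes reached 1. From the steps between low values, Ldhb_KO was 1.05 times as deep as WT, and a rough estimate of the depth of WT fell between 11000000 and 12000000 fragments for 64 of 272 genes with a single transcript, the most frequent class. The libraries also differed in how tightly they shared the value of 1 read. Among low genes with the same number of reads in a pair of libraries, the middle 80% of ratios spanned 0.0167% between WT and SO, 0.431% between WT and Ldhb_KO, 0.576% between WT and Ldha_KO and 0.218% between the knockouts. WT and SO thus matched more closely than either did with a knockout. The labels name no batch, and the part of this gap in any difference below was not tested.

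The targeted gene fell in the library that carries its knockout label. Ldhb was at 76.5 in WT, 5.74 in Ldhb_KO, 139 in SO and 158 in Ldha_KO. Ldhb_KO was the lowest of the 4 libraries, 13.3-fold below WT in FPKM, and the difference of -3.52 was the most negative of all genes with at least 5 in the higher library. In bulk RNA, fewer cells with a transcript and less RNA per cell cannot be told apart. Ldha was at 1774 in WT, 2237 in Ldhb_KO, 1711 in SO and 154 in Ldha_KO, a difference of 0.33. This gene for the A subunit had the highest level of the family in Ldhb_KO, and its difference stayed within the 2-fold rule. Ldhc, the form of the testis, was at 1.24 in WT, 3.11 in Ldhb_KO, 2.58 in SO and 4.60 in Ldha_KO, a difference of 0.87. Hdac1, a histone deacetylase that the series title names, was at 56.1 in WT, 44.7 in Ldhb_KO, 49.4 in SO and 41.96 in Ldha_KO, a difference of -0.32. Neither passed the rule. Among the neighbours of Ldhb on chromosome 6, chosen after their values were seen, Golt1b was at 47.7 in WT and 36.6 in Ldhb_KO (-0.37), Recql at 16.5 in WT and 13.5 in Ldhb_KO (-0.27) and Cmas at 52.7 in WT and 53.2 in Ldhb_KO (0.01).

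Of the 12787 genes, 441 (3.45%) rose and 143 (1.12%) fell in Ldhb_KO. Over the same genes, which share the WT library, 300 (2.35%) rose and 139 (1.09%) fell in Ldha_KO, and 304 (2.38%) rose and 62 (0.485%) fell in SO. The median difference in Ldhb_KO was -0.03, the 5th and 95th percentiles were -0.67 and 0.89, and 73.1% of genes lay within 0.5 of 0. Over all genes, 6043 lay above 0 and 6744 below, the setting for such counts in the lists. The smallest differences past the rule were 1.00021 and -1.00028, and the largest that stayed within it were 0.999361 and -0.999654. Risen genes made up 75.5% of the 584 past the rule. Their share was 86.4% with Ldhb_KO rescaled to the sum of WT, which moved the median of all genes by 0.11, and 61.6% when each difference was set against the median of genes of similar level.

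**Figure D1:**
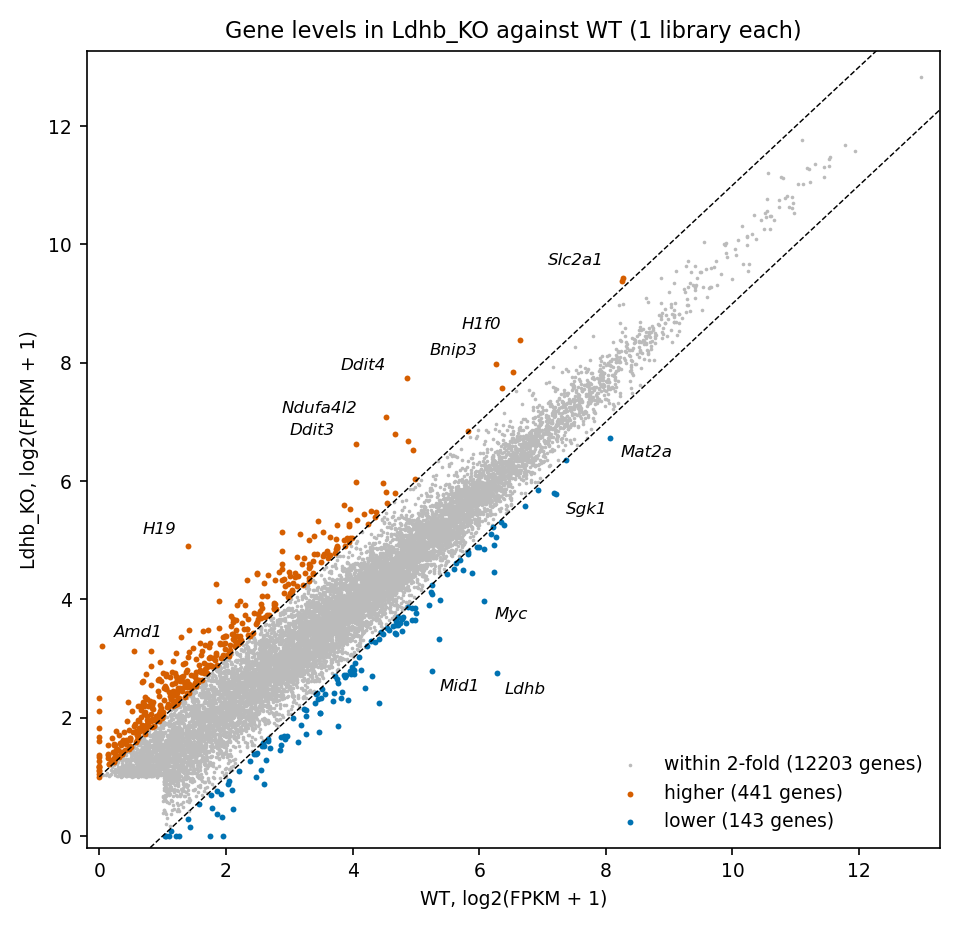
Each point is 1 of 12787 genes, with its level in WT on the horizontal axis and in Ldhb_KO on the vertical axis, both as log2(FPKM + 1), and the dashed lines mark the 2-fold rule. The 441 orange genes above the upper line include Ddit4, Ndufa4l2, Ddit3 and H19, and the 143 blue genes below the lower line include Ldhb, Mid1 and Myc.

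The difference moved with the level of the gene. Genes with a mean of 2 to 5 in WT and Ldhb_KO had a median difference of 0.19, and 7.20% of them rose and 1.10% fell. Those above 100 had a median of -0.19, with 0.775% risen and 0.332% fallen. Of the 441 risen genes, 150 were below 1 in WT and 14 of these were listed at 0, while 23 of the 143 fallen genes were below 1 in Ldhb_KO.

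**Figure D2:**
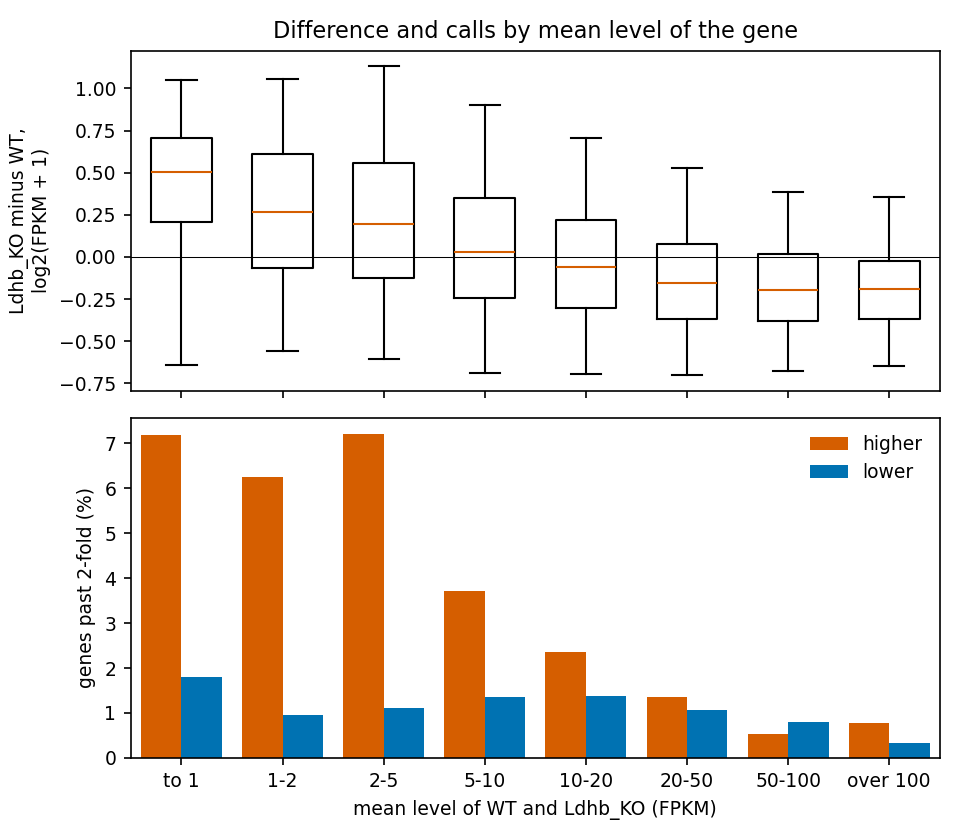
The upper panel gives the Ldhb_KO minus WT difference in 8 bins of mean level (FPKM), as a box from the 25th to the 75th percentile with the median in orange and whiskers at the 5th and 95th percentiles, and the lower panel gives the percent of genes past the 2-fold rule. The median falls from 0.51 in the lowest bin to -0.19 in the highest, and the bars for risen genes shrink from 7.19% to 0.775%.

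Many hypoxia genes were higher in Ldhb_KO than in WT. When oxygen is low, prolyl hydroxylases stop marking the HIF alpha proteins for destruction, and HIF then activates genes for glycolysis, pH control, matrix and blood vessel growth. Of 45 genes listed, 43 were kept, 4 of them through Ldhb_KO alone and 1 through WT alone. Of the 43, 19 rose, 1 fell and 23 stayed within the rule, against 3.45% risen and 1.12% fallen over all genes. All 4 kept through Ldhb_KO alone (Car12, Stc1, Bhlhe41 and Ppp1r3c) were among the 19 risen. The median of the kept members was 0.82, against -0.03 over all genes, and 0.87 with each difference set against genes of similar level. Side by side, and with the WT library shared, the same members had 13 risen and 0 fallen with a median of 0.61 in SO, and 8 and 0 with 0.44 in Ldha_KO.

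Among the oxygen sensors and regulators, 2 of 10 rose and 1 fell. Egln3, a prolyl hydroxylase of HIF that is itself a HIF target, was at 9.49 in WT, 32.5 in Ldhb_KO, 19.02 in SO and 11.4 in Ldha_KO, a difference of 1.67. Egln1, the main oxygen-sensing prolyl hydroxylase, was at 7.35 in WT, 18.3 in Ldhb_KO, 12.8 in SO and 9.94 in Ldha_KO, a difference of 1.21. Both were highest in Ldhb_KO and lowest in WT. Epas1, which encodes HIF-2 alpha, fell, at 14.96 in WT, 6.27 in Ldhb_KO, 11.7 in SO and 7.84 in Ldha_KO, a difference of -1.13. Hif1a, which encodes HIF-1 alpha, was at 55.8 in WT, 34.7 in Ldhb_KO, 31.6 in SO and 49.3 in Ldha_KO, a difference of -0.67. Vhl, the ubiquitin ligase subunit that binds hydroxylated HIF, was at 15.7 in WT, 14.1 in Ldhb_KO, 14.99 in SO and 16.5 in Ldha_KO, a difference of -0.14. The transcripts of Epas1 and Hif1a were thus lower in Ldhb_KO than in WT, with Hif1a inside the rule. Hif3a, which encodes a further alpha subunit and was named after its values were seen, was higher but also inside it, with 1.55 in WT and 3.32 in Ldhb_KO (0.76).

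Targets in signalling and growth rose in 8 of 17 kept members, with a median of 0.90. Ddit4, an inhibitor of the growth kinase complex mTORC1, had the third highest difference of genes with at least 5 in the higher library. It was at 28.1 in WT, 213 in Ldhb_KO, 114 in SO and 50.9 in Ldha_KO, a difference of 2.88, which is 7.59-fold in FPKM. Adm, which encodes the vasodilator peptide adrenomedullin, was at 1.44 in WT, 9.25 in Ldhb_KO, 4.27 in SO and 4.17 in Ldha_KO, a difference of 2.07. Bhlhe40, a transcriptional repressor tied to the circadian clock, was at 8.01 in WT, 33.4 in Ldhb_KO, 13.6 in SO and 16.6 in Ldha_KO, a difference of 1.93. In all 3 the order was WT lowest and Ldhb_KO highest, with SO and Ldha_KO between. Ndrg1, a stress-responsive gene, was at 9.93 in WT, 39.01 in Ldhb_KO, 32.6 in SO and 20.2 in Ldha_KO, a difference of 1.87. Stc1, which encodes the hormone stanniocalcin, was at 0.617 in WT, 3.82 in Ldhb_KO, 1.81 in SO and 0.555 in Ldha_KO, a difference of 1.58. Vegfa, the growth factor of blood vessels, was at 14.4 in WT, 37.8 in Ldhb_KO, 23.6 in SO and 20.01 in Ldha_KO, a difference of 1.33. For Ndrg1 and Vegfa the value in SO lay second, and for Stc1 the values of WT and Ldha_KO were close together and low.

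Targets in matrix, pH and mitochondria rose in 9 of 16 kept members, with a median of 1.18. Car12, a carbonic anhydrase of the cell surface that helps control pH, was at 0.454 in WT, 7.75 in Ldhb_KO, 3.88 in SO and 2.85 in Ldha_KO, a difference of 2.59. Ndufa4l2, a mitochondrial protein that lowers complex I activity, was at 21.98 in WT, 134 in Ldhb_KO, 95.2 in SO and 103 in Ldha_KO, a difference of 2.55. Cox4i2, an isoform of a cytochrome c oxidase subunit, was at 2.57 in WT, 18.2 in Ldhb_KO, 9.84 in SO and 13.2 in Ldha_KO, a difference of 2.42. These 3 had differences above 2 and were well above WT in all other libraries. Loxl2, a lysyl oxidase of collagen, was at 4.05 in WT, 19.2 in Ldhb_KO, 11.3 in SO and 12.3 in Ldha_KO, a difference of 1.998. P4ha2, a collagen prolyl hydroxylase subunit, was at 4.63 in WT, 20.9 in Ldhb_KO, 23.95 in SO and 17.2 in Ldha_KO, a difference of 1.96. Bnip3, a receptor for mitophagy, was at 75.9 in WT, 252 in Ldhb_KO, 116 in SO and 109.5 in Ldha_KO, a difference of 1.72. For P4ha2 the highest library was SO, while Bnip3 was highest in Ldhb_KO.

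The upstream sequences of the risen hypoxia gene Ddit4 and of Adm are shown because they had the largest rises among hypoxia genes with the core of the hypoxia response element in the 250 bases before the start. The core was searched as ACGTG or GCGTG on both strands, and capitals mark each match, as it reads on the strand shown. The sequences are those of RefSeq for GRCm38.p6, 5′ to 3′ on the strand of the gene. Ddit4 is at chr10:59951771-59952020, minus strand, with 2 matches, and Adm at chr7:110627407-110627656, plus strand, with 2 matches that read CACGC here.
Ddit4: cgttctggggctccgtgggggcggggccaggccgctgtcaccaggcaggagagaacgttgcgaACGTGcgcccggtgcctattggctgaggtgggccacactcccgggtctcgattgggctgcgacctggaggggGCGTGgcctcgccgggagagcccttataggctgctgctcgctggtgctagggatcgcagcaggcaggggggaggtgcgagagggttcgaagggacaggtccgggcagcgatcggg
Adm: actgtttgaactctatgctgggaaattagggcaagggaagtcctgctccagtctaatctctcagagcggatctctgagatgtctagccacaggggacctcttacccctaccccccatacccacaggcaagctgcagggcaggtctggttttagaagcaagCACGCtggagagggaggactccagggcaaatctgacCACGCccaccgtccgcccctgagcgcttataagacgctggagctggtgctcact
The core was present in 38.6% of the 32851 windows of the table and in 56.3% of the 13062 windows of kept genes. Counted by gene, it was in 41.5% of the 27025 genes of the table and in 62.3% of the 10283 kept genes that matched it. Only 32 of the 43 kept hypoxia genes had a window, fewer than 80%, so a share over the list is void and none is given. A match describes these letters and is not evidence of binding.

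Glycolysis genes lay above 0 in 21 of 22 members, with a median of 0.51, and 3 of them rose, against 3.45% over all genes. Slc2a1 and Slc2a3 encode the glucose transporters GLUT1 and GLUT3. Slc2a1 was at 307 in WT, 690.1 in Ldhb_KO, 502 in SO and 393 in Ldha_KO, a difference of 1.17, and Slc2a3 at 303 in WT, 663 in Ldhb_KO, 544 in SO and 646 in Ldha_KO, a difference of 1.13. Aldoc, an isoform of aldolase, was at 6.41 in WT, 23.3 in Ldhb_KO, 15.1 in SO and 9.40 in Ldha_KO, a difference of 1.71. Ldhb_KO was the highest library for all 3, with Ldha_KO close behind for Slc2a3. The other glycolytic enzymes stayed within the rule, as Pgk1 with 157 in WT and 229 in Ldhb_KO (0.55) and Aldoa with 1738 in WT and 2253 in Ldhb_KO (0.37). For the same members the median was 0.32 in SO and 0.18 in Ldha_KO, each with 1 risen. Gapdh, which has many near-identical pseudogene copies, was at only 9.99 in WT and 11.3 in Ldhb_KO (0.16), so its value is uncertain.

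Genes of pyruvate and lactate handling were past the rule about as often as genes in general. Of the 36 kept, 1 rose and 1, the targeted Ldhb, fell, against 3.45% risen and 1.12% fallen over all genes. The lactate carriers Slc16a1 and Slc16a3 encode MCT1 and MCT4. Slc16a1 was at 85.5 in WT, 62.1 in Ldhb_KO, 67.9 in SO and 81.4 in Ldha_KO, a difference of -0.46, and Slc16a3 was at 115 in WT, 132 in Ldhb_KO, 131 in SO and 112 in Ldha_KO, a difference of 0.20. Bsg, the chaperone of these carriers, was at 395 in WT, 547 in Ldhb_KO, 530.4 in SO and 475 in Ldha_KO, a difference of 0.47. No member of the lactate transport genes passed the rule. Pdk1, a kinase that inhibits pyruvate dehydrogenase and is a known HIF target, was at 49.8 in WT, 56.2 in Ldhb_KO, 53.4 in SO and 35.7 in Ldha_KO, a difference of 0.17. All 9 NADH shuttle genes stayed within the rule, 8 of them below 0, with a median of -0.29, or -0.18 against genes of similar level. Gpd2, the mitochondrial glycerol phosphate dehydrogenase, was at 52.3 in WT and 33.5 in Ldhb_KO (-0.63). None of the 18 tricarboxylic acid cycle genes (median 0.01, or 0.19 against genes of similar level) or of the 57 respiratory chain genes passed the rule. That is near the share of abundant genes, since 0.531% rose and 0.797% fell at a mean level of 50 to 100. The median of the respiratory chain genes was -0.06, and 0.05 with Ldhb_KO rescaled to the sum of WT or 0.11 against genes of similar level. The lowest respiratory chain member was Cox7c, with 30.2 in WT and 17.5 in Ldhb_KO (-0.75).

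**Figure D3:**
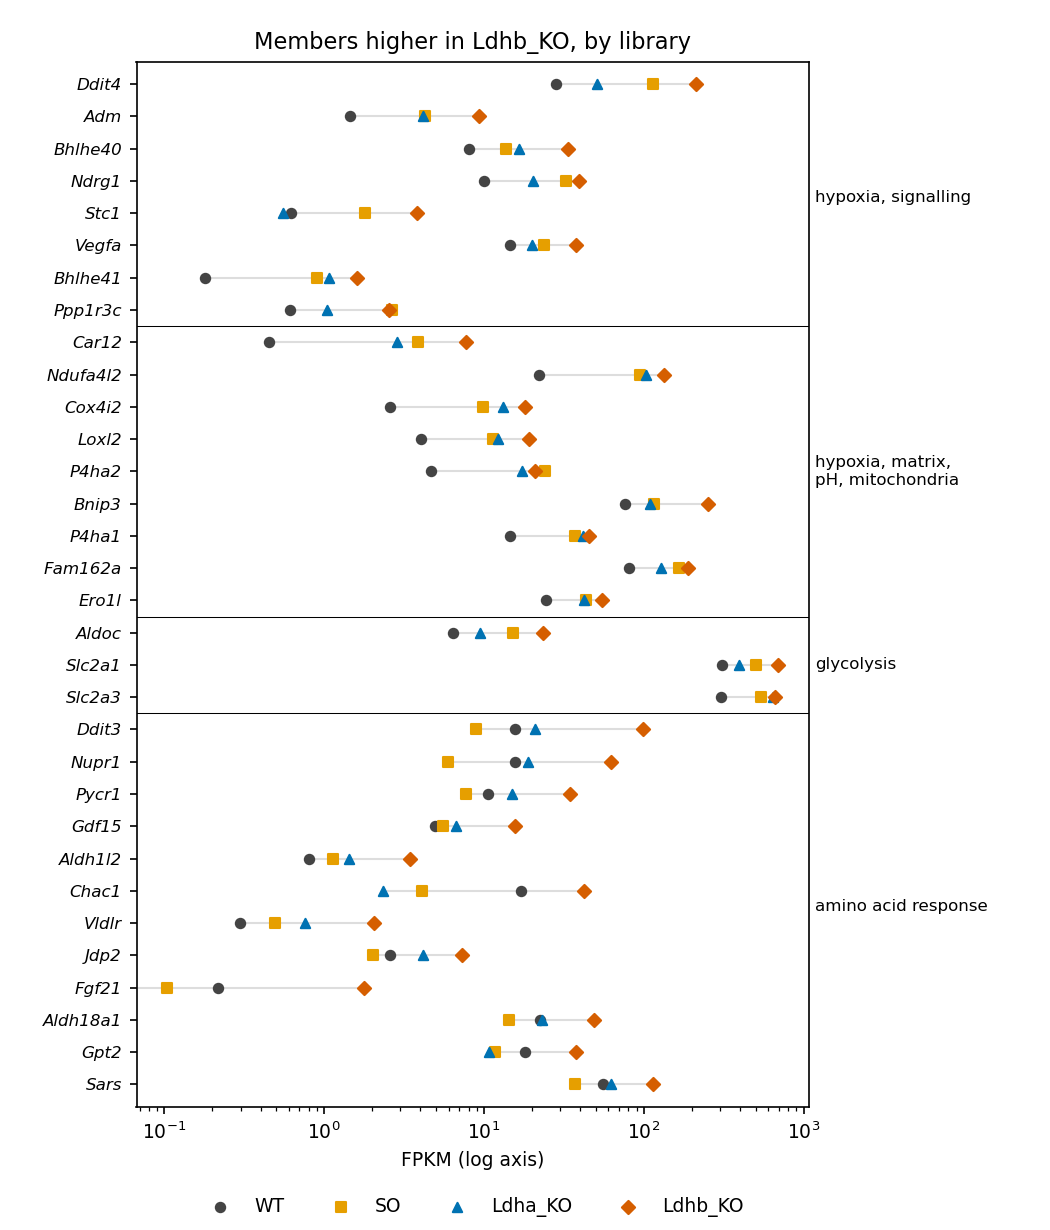
Values in FPKM on a log axis are given for 32 risen hypoxia, glycolysis and amino acid response genes, with 1 marker per library, and a value listed at 0 lies off the left edge. Hypoxia and glycolysis genes have SO and Ldha_KO mostly between WT and Ldhb_KO, as Ddit4 with 28.1 in WT, 50.9 in Ldha_KO, 114 in SO and 213 in Ldhb_KO, while for the amino acid response SO is often the lowest, as Ddit3 with 8.90 in SO and 98.3 in Ldhb_KO.

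The amino acid response, the programme of Atf4, gave a further group of risen genes. Uncharged tRNA or other stress leads to phosphorylation of eIF2 alpha, which raises translation of Atf4, and Atf4 then activates genes for amino acid synthesis, uptake and tRNA charging. Of 68 genes found, 67 were kept, 3 of them through Ldhb_KO alone: the risen Vldlr, Fgf21 and Aldh1l2. In Ldhb_KO 12 rose and 1 fell, against 3.45% and 1.12% over all genes. Of the 67, 54 lay above 0, against 6043 of 12787 over all genes, and the median was 0.46, against -0.03. For the same members SO had 0 risen and 2 fallen with a median of -0.36, and Ldha_KO had 1 and 2 with -0.08. The differences between these comparisons have no test.

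Transcription factors and feedback genes rose in 7 of 20 members. Ddit3, which encodes the stress transcription factor CHOP, was at 15.6 in WT, 98.3 in Ldhb_KO, 8.90 in SO and 21.00 in Ldha_KO, a difference of 2.58, which is 6.29-fold in FPKM. Nupr1, a stress-induced chromatin protein, was at 15.7 in WT, 62.6 in Ldhb_KO, 5.91 in SO and 18.9 in Ldha_KO, a difference of 1.93. Chac1, an enzyme that degrades glutathione, was at 17.1 in WT, 42.4 in Ldhb_KO, 4.07 in SO and 2.34 in Ldha_KO, a difference of 1.26. Each was highest in Ldhb_KO, and Chac1 in SO and Ldha_KO was below WT. Gdf15, a stress-induced hormone, was at 4.93 in WT, 15.6 in Ldhb_KO, 5.50 in SO and 6.70 in Ldha_KO, a difference of 1.49. Atf4 itself was at 213 in WT, 264 in Ldhb_KO, 129.6 in SO and 218 in Ldha_KO, a difference of 0.31, and Trib3, its feedback inhibitor, at 20.98 in WT, 39.9 in Ldhb_KO, 15.3 in SO and 10.3 in Ldha_KO, a difference of 0.90. Both of these stayed within the rule.

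Enzymes of serine, proline and one-carbon metabolism rose in 4 of 18 members and fell in 1. The proline genes Aldh18a1 and Pycr1 act in sequence on the path from glutamate to proline in mitochondria. Pycr1 was at 10.6 in WT, 34.3 in Ldhb_KO, 7.76 in SO and 15.1 in Ldha_KO, a difference of 1.61, and Aldh18a1 was at 22.4 in WT, 48.7 in Ldhb_KO, 14.3 in SO and 23.2 in Ldha_KO, a difference of 1.09. Aldh1l2, a mitochondrial folate enzyme, was at 0.809 in WT, 3.45 in Ldhb_KO, 1.14 in SO and 1.43 in Ldha_KO, a difference of 1.30. Gpt2, which makes alanine from pyruvate, was at 17.9998 in WT, 37.8 in Ldhb_KO, 11.7 in SO and 10.8 in Ldha_KO, a difference of 1.03. These 4 risen genes were each highest in Ldhb_KO. The serine enzymes stayed within the rule, as Phgdh with 46.1 in WT and 78.3 in Ldhb_KO (0.75) and Psat1 with 221 in WT and 349 in Ldhb_KO (0.66), both named after their values were seen, and Asns, asparagine synthetase, with 297 in WT and 409 in Ldhb_KO (0.46). None of the 10 amino acid transporters passed the rule (median 0.44). Of 19 tRNA synthetases, only Sars, for serine, rose, at 55.9 in WT, 114 in Ldhb_KO, 37.3 in SO and 62.7 in Ldha_KO, a difference of 1.02, and the median was 0.23.

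Upstream sequences of Nupr1 and Pycr1 are shown because they had the largest rises among these genes with a composite element of Atf4 and C/EBP in the window. It was searched as TGATGNAAT or TGATGNAAC on both strands. Capitals mark the match, at 111 bases before the start in Nupr1, where it reads as ATTGCATCA, and at 103 bases in Pycr1. Nupr1 is at chr7:126625471-126625720 and Pycr1 at chr11:120643749-120643998, both on the minus strand of GRCm38.p6, from RefSeq.
Nupr1: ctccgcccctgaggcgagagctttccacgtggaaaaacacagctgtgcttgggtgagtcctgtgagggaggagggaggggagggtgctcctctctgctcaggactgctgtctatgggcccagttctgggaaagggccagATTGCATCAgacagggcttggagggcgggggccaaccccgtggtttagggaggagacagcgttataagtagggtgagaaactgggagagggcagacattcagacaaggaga
Pycr1: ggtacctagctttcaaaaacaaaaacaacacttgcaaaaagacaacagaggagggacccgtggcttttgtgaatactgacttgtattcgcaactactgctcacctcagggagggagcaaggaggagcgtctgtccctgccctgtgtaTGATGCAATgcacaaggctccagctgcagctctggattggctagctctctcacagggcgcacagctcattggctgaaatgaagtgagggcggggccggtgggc
The element was present in 6 of the 11 risen amino acid response genes that matched the table (12 rose). Over all kept members it was in 11, but only 51 of 67 matched, fewer than 80%, so a share over the list is void and none is given. By comparison, it was in 108 of the 10283 matched kept genes (1.05%) and in 449 of the 27025 genes of the table (1.66%). Counted by window, it was in 500 of the 32851 windows (1.52%). Many of these genes are textbook targets of Atf4, and the share is a description.

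Chaperone genes of the endoplasmic reticulum stayed within the rule. None of the 22 kept genes of the unfolded protein response passed the rule, near the share over all genes (3.45% risen, 1.12% fallen). The median was -0.26, or -0.098 against genes of similar level. The chaperone genes Dnajb9 and Hyou1 had the largest differences, with 18.7 in WT and 11.4 in Ldhb_KO (-0.67) and 57.5 in WT and 36.9 in Ldhb_KO (-0.63). Of 14 heat shock chaperones, Hspb8 rose with 19.4 in WT and 41.2 in Ldhb_KO (1.05) and Hsph1 fell with 55.9 in WT and 26.3 in Ldhb_KO (-1.06), the latter within the rule (-0.94) when rescaled to the sum of WT.

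In the list of p53, the tumour suppressor that responds to DNA damage, which holds 27 genes with Trp53 itself, 5 rose and 0 fell, with a median of 0.51. Over all genes, 3.45% rose and 1.12% fell. Of the 27, 2 were kept through Ldhb_KO alone, the risen Tap1 (0.965 in WT) among them. Bbc3, which encodes the killer protein PUMA, was at 13.5 in WT, 31.1 in Ldhb_KO, 32.3 in SO and 28.5 in Ldha_KO, a difference of 1.15. Plk2, a kinase, was at 6.89 in WT, 15.4 in Ldhb_KO, 45.9 in SO and 64.5 in Ldha_KO, a difference of 1.05. Ephx1, an epoxide hydrolase, was at 8.41 in WT, 24.95 in Ldhb_KO, 36.8 in SO and 25.8 in Ldha_KO, a difference of 1.46. For Bbc3, Plk2 and Ephx1 the value in SO was above that in Ldhb_KO. Cdkn2a, which encodes the cell cycle inhibitors of the Ink4a and Arf locus, is in the cell cycle list and rose, with 14.4 in WT and 36.6 in Ldhb_KO (1.29). Trp53, which encodes p53, had the lowest difference of the list, within the rule, with 179.9 in WT and 104 in Ldhb_KO (-0.79), and was named after its values were seen. The p53 members had 15 risen with a median of 1.198 in SO and 11 with 0.85 in Ldha_KO.

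**Figure D4:**
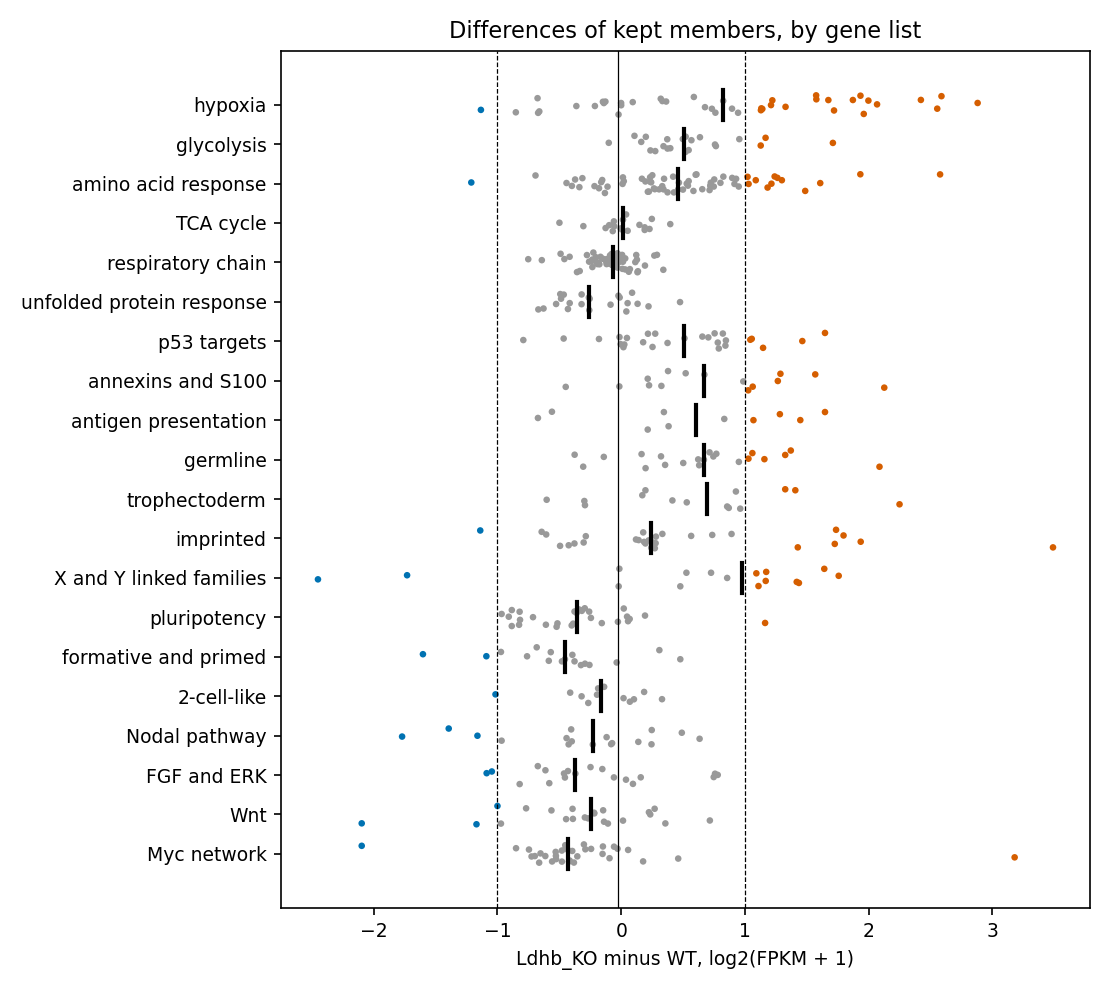
Each point is a kept member of 1 of 20 gene lists, placed by its Ldhb_KO minus WT difference, with thick bars at the list median, a thin line at the median of all genes (-0.03) and dashed lines at the 2-fold rule. The hypoxia points reach 2.88 with a median of 0.82, while the pluripotency, Nodal, FGF and Myc lists have medians below the line of all genes.

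Stem cell markers were present in every library, as the label says. All 6 pluripotency markers were above 1 in each, with Pou5f1 at 1330.1 in WT, 1084 in Ldhb_KO, 1115 in SO and 972 in Ldha_KO, and Sox2 at 371 in WT, 389 in Ldhb_KO, 344 in SO and 204 in Ldha_KO. Nanog was at 503 in WT and 424 in Ldhb_KO (-0.24), Klf4 at 124 in WT and 142 in Ldhb_KO (0.19), Esrrb at 239.9 in WT and 248 in Ldhb_KO (0.05) and Zfp42 at 624 in WT and 500.5 in Ldhb_KO (-0.32), none of them past the rule. Of 29 core and naive factors, 23 lay below 0 with a median of -0.36, or -0.19 against genes of similar level, and 1 rose. That gene was Dppa3, a maternal and germline factor, at 4.03 in WT, 10.3 in Ldhb_KO, 4.24 in SO and 0.952 in Ldha_KO, a difference of 1.16. Ldhb_KO was its highest library and Ldha_KO its lowest.

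Formative and primed factors, which mark the exit from naive pluripotency, had a median of -0.45. Of 17 kept, 2 fell, against 1.12% over all genes. Foxd3, a repressor active in this transition, was at 18.9 in WT, 5.54 in Ldhb_KO, 16.96 in SO and 12.96 in Ldha_KO, a difference of -1.60. Otx2, a transcription factor of primed cells, was at 61.6 in WT, 28.4 in Ldhb_KO, 69.4 in SO and 25.3 in Ldha_KO, a difference of -1.09. Foxd3 was lowest in Ldhb_KO, and Otx2 was low in both knockouts, with a difference of -0.97 on rescaling to the sum of WT.

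Genes of the 2-cell state had levels close to those of WT. Only 12 of 32 genes were kept, and 0 rose and 1 fell, against 3.45% and 1.12% over all genes. The median was -0.16, or -0.27 against genes of similar level. Zscan4c, a member of the Zscan4 family that is expressed in bursts in stem cells, was at 2.03 in WT, 2.06 in Ldhb_KO, 16.9 in SO and 10.6 in Ldha_KO. Dux, an activator of the state, was listed at 0 in WT and Ldhb_KO. Over the same 12 genes, 10 rose in SO and 9 in Ldha_KO. The fallen gene was Zfp534, a zinc finger gene, with 25.3 in WT and 12.01 in Ldhb_KO (-1.02), and rescaling to the sum of WT left it within the rule. The Zscan4 members are near-identical copies that share reads, so each copy's value is uncertain.

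Growth factor signals had several fallen genes and 0 risen in the Nodal, FGF and Wnt lists, against 1.12% fallen and 3.45% risen over all genes. In the Nodal pathway, which is limited by the secreted Lefty antagonists, 3 of 17 members fell. The median was -0.23 and 5 lay above 0, while the summed level of the 19 listed genes was 1179 in WT and 1342 in Ldhb_KO. Lefty2 was at 74.4 in WT, 21.1 in Ldhb_KO, 39.9 in SO and 23.1 in Ldha_KO, a difference of -1.77. Lefty1 was at 26.01 in WT, 11.1 in Ldhb_KO, 5.48 in SO and 8.63 in Ldha_KO, a difference of -1.16. Inhbb, which encodes an activin subunit, was at 10.1 in WT, 3.24 in Ldhb_KO, 3.65 in SO and 2.42 in Ldha_KO, a difference of -1.39. WT was the highest library for all 3, and Lefty1 and Inhbb were lower in SO or Ldha_KO than in Ldhb_KO.

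FGF signalling through ERK induces its own feedback inhibitors, and 2 of 13 such targets fell, with a median of -0.45, or -0.27 against genes of similar level. Spry2, an inhibitor of this signal, was at 72.1 in WT, 33.4 in Ldhb_KO, 59.2 in SO and 17.8 in Ldha_KO, a difference of -1.09, and Etv1, a transcription factor, at 10.5 in WT, 4.57 in Ldhb_KO, 5.28 in SO and 5.09 in Ldha_KO, a difference of -1.05. Rescaling to the sum of WT left both within the rule, at -0.97 and -0.95. Bmp4, a ligand that supports self-renewal with LIF, was at 58.1 in WT, 20.8 in Ldhb_KO, 54.7 in SO and 20.3 in Ldha_KO, a difference of -1.44. Gbx2, a target of LIF and Stat3, was at 27.7 in WT, 11.1 in Ldhb_KO, 6.85 in SO and 4.16 in Ldha_KO, a difference of -1.24. Bmp4 and Gbx2 were each the only fallen gene of their list, and both lists lay mostly above 0. Of 13 kept BMP and Id genes 8 lay above 0 (median 0.35), and of 20 LIF and Stat3 genes 12 did (median 0.17). The Wnt targets held 3 fallen genes of 14. Notum, a secreted Wnt inhibitor, was at 13.9 in WT, 5.62 in Ldhb_KO, 8.19 in SO and 6.07 in Ldha_KO, a difference of -1.17, and Ccnd1, cyclin D1, at 73.6 in WT, 36.3 in Ldhb_KO, 38.6 in SO and 43.9 in Ldha_KO, a difference of -1.00028, or -0.88 when rescaled.

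Myc, the growth-promoting transcription factor, was the third Wnt target to fall and among the lowest of all genes. It was at 66.5 in WT, 14.8 in Ldhb_KO, 40.5 in SO and 12.7 in Ldha_KO, a difference of -2.10, which is 4.50-fold lower than WT in FPKM. Ldha_KO was lower still and SO lay between. In the Myc network, ribosome biogenesis and polyamine genes lay below 0 in 23 of 24 members, against 6744 of 12787 over all genes. Their median was -0.48, or -0.29 against genes of similar level, and 0 fell. The 1 member above 0 was Amd1, a polyamine enzyme, at 0.0276 in WT and 8.31 in Ldhb_KO. Its near-identical copy Amd2, named after the values were seen, was at 61.4 in WT and 38.4 in Ldhb_KO (-0.66), so the split between the copies is uncertain. Ribosomal proteins had 0 of 38 past the rule, against 3.45% risen and 1.12% fallen over all genes. Their median was -0.15, which was 0.04 when each difference was set against genes of similar level.

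**Figure D5:**
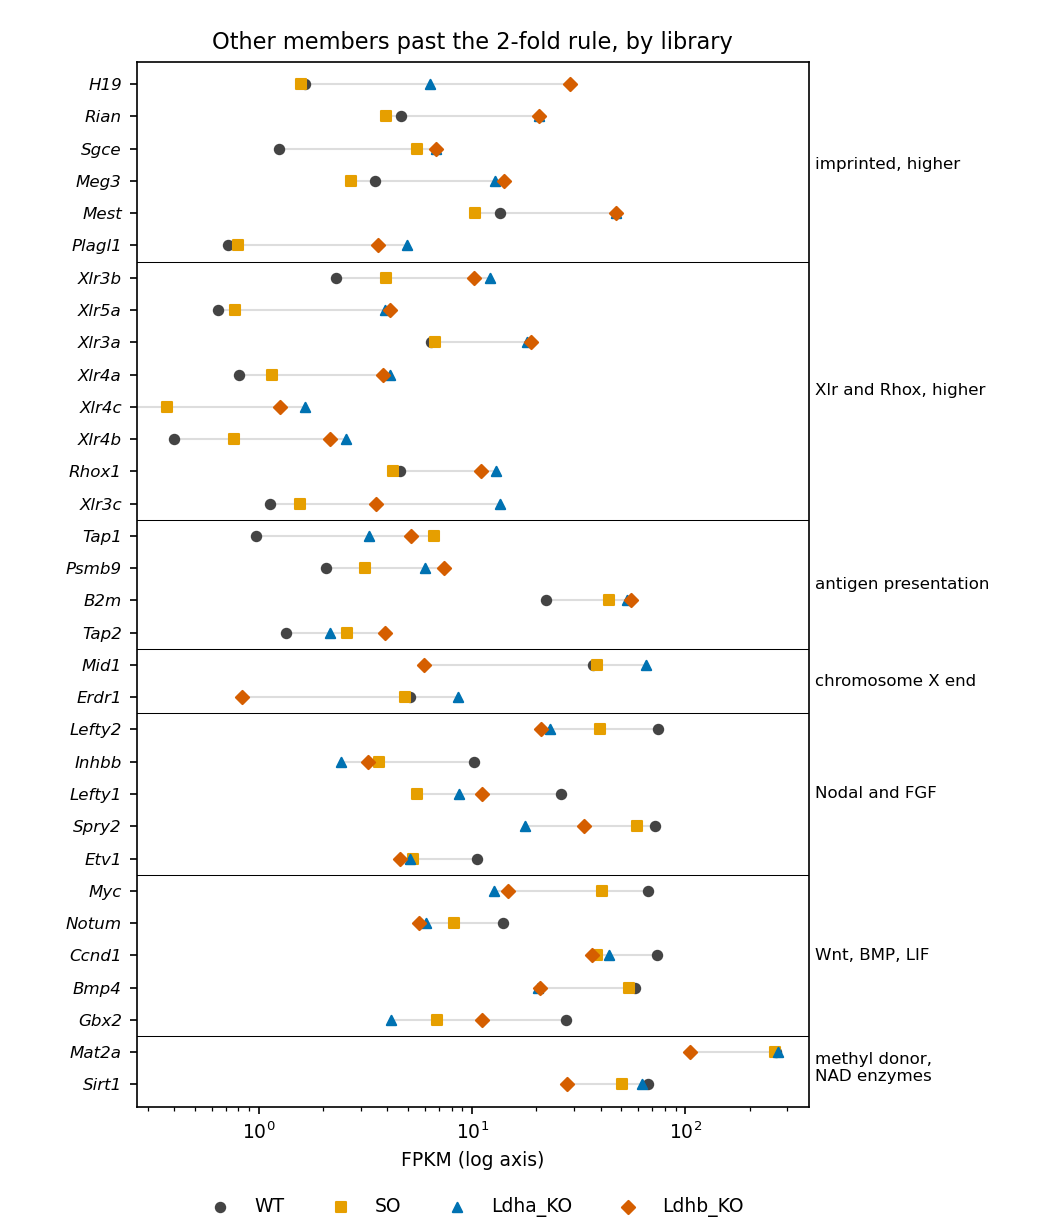
Values in FPKM on a log axis are given for further genes past the 2-fold rule, with 1 marker per library, and a value listed at 0 lies off the left edge. For the Xlr genes both knockouts lie above WT and SO, as Xlr3a with 18.97 in Ldhb_KO, 18.1 in Ldha_KO, 6.71 in SO and 6.38 in WT, while Mid1 and Mat2a are lowest in Ldhb_KO.

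Imprinted genes, expressed from 1 parental allele, had 6 of 29 risen and 1 fallen, against 3.45% and 1.12% over all genes. Of the 29, 3 were kept through Ldhb_KO alone and 2 through WT alone. Among those 3 was the risen Plagl1, at 0.713 in WT and 3.61 in Ldhb_KO (1.43). The maternally expressed noncoding RNA H19, next to Igf2, had the highest difference among genes with at least 5 in the higher library. It was at 1.65 in WT, 28.7 in Ldhb_KO, 1.57 in SO and 6.37 in Ldha_KO, a difference of 3.49. Meg3 and Rian are noncoding RNAs of a shared imprinted domain. Meg3 was at 3.51 in WT, 14.03 in Ldhb_KO, 2.70 in SO and 12.8 in Ldha_KO, a difference of 1.74, and Rian was at 4.65 in WT, 20.6 in Ldhb_KO, 3.93 in SO and 20.5 in Ldha_KO, a difference of 1.94. Meg3 and Rian were high in both knockouts, H19 was highest in Ldhb_KO, and SO was near WT for all 3. Igf2 was at 1.62 in WT and 1.15 in Ldhb_KO (-0.29). Of the paternally expressed genes 3 rose and 1 fell. Mest was at 13.6 in WT, 47.2 in Ldhb_KO, 10.3 in SO and 47.1 in Ldha_KO, a difference of 1.73. Sgce, the sarcoglycan gene next to Peg10, was at 1.24 in WT, 6.79 in Ldhb_KO, 5.51 in SO and 6.73 in Ldha_KO, a difference of 1.80. Zdbf2 fell, at 13.5 in WT, 5.59 in Ldhb_KO, 10.7 in SO and 12.9 in Ldha_KO, a difference of -1.14. The median of the paternally expressed genes, 0.19, became -0.10 against genes of similar level.

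The X-linked families gave a mixed picture. Kept members of the Xlr, Rhox and Mage genes and the neighbours of the pseudoautosomal region numbered 16. Of these, 8 rose and 2 fell, against 3.45% and 1.12% over all genes, and 4 were kept through Ldhb_KO alone. Xlr3b was at 2.302 in WT, 10.2 in Ldhb_KO, 3.93 in SO and 12.1 in Ldha_KO, a difference of 1.76, and Xlr5a at 0.642 in WT, 4.12 in Ldhb_KO, 0.767 in SO and 3.88 in Ldha_KO, a difference of 1.64. Xlr4a, Xlr3a, Xlr5a, Xlr5b, Xlr3b and Xlr4b, lymphocyte-regulated genes of chromosome X, stood next to each other among kept genes, all risen. Of these, Xlr4a, Xlr5a, Xlr5b and Xlr4b were below 1 in WT and kept through Ldhb_KO alone, so the run rests in part on the filter. Against genes of similar level Xlr4b was within the rule (0.90). They are near-identical copies, so single values are uncertain. The other libraries gave 9 risen of the 16 in Ldha_KO and 0 in SO. At the end of the chromosome, Mid1, a ubiquitin ligase gene that crosses the pseudoautosomal boundary, fell, at 37.02 in WT, 5.95 in Ldhb_KO, 38.3 in SO and 65.7 in Ldha_KO, a difference of -2.45. Erdr1, in the same region, was at 5.08 in WT, 0.832 in Ldhb_KO, 4.85 in SO and 8.53 in Ldha_KO, a difference of -1.73. Ldha_KO was the highest library for both and Ldhb_KO the lowest.

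Germline, calcium-binding and antigen presentation genes were also among the risen. Over all genes, 3.45% rose and 1.12% fell, with a median of -0.03, the setting for the counts that follow. Of 21 genes of meiosis and piRNA, 6 rose and 0 fell, with a median of 0.67. Stra8, the gatekeeper of meiotic entry, was at 2.71 in WT, 14.8 in Ldhb_KO, 9.41 in SO and 30.99 in Ldha_KO, a difference of 2.09. Rec8, a meiotic cohesin, was at 4.86 in WT, 14.2 in Ldhb_KO, 13.2 in SO and 14.4 in Ldha_KO, a difference of 1.37. Stra8 was highest in Ldha_KO. Of 15 annexins and S100 calcium-binding proteins, 6 rose and 0 fell (median 0.67), and 2 were kept through Ldhb_KO alone. One of these, the risen Anxa8, was at 0.138 in WT and 1.38 in Ldhb_KO (1.06). Against genes of similar level Anxa8 was within the rule (0.56). Anxa2 was at 24.5 in WT, 110.4 in Ldhb_KO, 73.2 in SO and 64.2 in Ldha_KO, a difference of 2.13, and S100a6, a small calcium-binding protein, at 29.97 in WT, 90.8 in Ldhb_KO, 87.2 in SO and 41.9 in Ldha_KO, a difference of 1.57. Among 10 kept genes of antigen presentation 4 rose and 0 fell, 2 being kept through Ldhb_KO alone. B2m, the light chain of MHC class I, was at 22.2 in WT, 55.3 in Ldhb_KO, 43.7 in SO and 53.2 in Ldha_KO, a difference of 1.28, and Tap1, a peptide transporter, at 0.965 in WT, 5.15 in Ldhb_KO, 6.59 in SO and 3.27 in Ldha_KO, a difference of 1.65. None of the 14 interferon sensors and effectors passed the rule, with a median of -0.02 that was 0.08 on rescaling.

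Markers of other cell types were checked by their summed levels. Trophectoderm markers summed to 8.46 in WT, 36.96 in Ldhb_KO, 36.5 in SO and 23.7 in Ldha_KO, and most of this was Krt19, a keratin that rose, at 6.38 in WT, 34.1 in Ldhb_KO, 32.2 in SO and 20.4 in Ldha_KO, a difference of 2.25. Of 14 kept genes of the longer trophectoderm list 3 rose and 0 fell, against 3.45% and 1.12% over all genes. Among the 3 was Tfap2c, a transcription factor of trophectoderm and germ cells, with 9.80 in WT and 26.1 in Ldhb_KO (1.33). The defining factors Cdx2, Gata3 and Elf5 were below 1 in every library. Fibroblast or feeder markers summed to between 41.7 and 52.2, of which Thy1 gave most, and Dcn and Lum were listed at 0 in all 4. Pdgfrb rose, with 0.949 in WT and 3.63 in Ldhb_KO (1.25). Primitive endoderm markers summed to 3.86 in WT and 3.72 in Ldhb_KO, mesoderm markers to 2.14 and 3.50, and neuroectoderm markers to 168 and 101. Most of the neuroectoderm sum was Tubb3, at 158.7 in WT and 90.7 in Ldhb_KO. Nes was at 5.88 and 5.72, Neurod1 at 1.56 and 3.31, and Sox1 and Pax6 were below 1 in both. Blood and endothelium markers summed to 45.8 in WT and 46.5 in Ldhb_KO, and 2-cell-like markers to 5.38 and 5.24. The part of these in the lists above was not tested beyond these levels.

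Other fallen genes included metabolic and zinc finger genes. Apart from Sirt1, a listed gene, and any among the 15 lowest, they were named after their values were seen. Mat2a makes S-adenosylmethionine, the methyl donor, and was at 267 in WT, 105 in Ldhb_KO, 264 in SO and 272 in Ldha_KO, a difference of -1.34. Sirt1, an NAD-dependent deacetylase of the Hdac complex list, was at 66.7 in WT, 27.98 in Ldhb_KO, 50.4 in SO and 62.4 in Ldha_KO, a difference of -1.23. Sgk1, a kinase induced by serum, was at 147 in WT, 54.3 in Ldhb_KO, 146 in SO and 83.6 in Ldha_KO, a difference of -1.42. Mat2a and Sirt1 were close to WT in Ldha_KO. Of 340 kept genes named Zfp, 269 lay below 0, 12 fell and 1 rose, with a median of -0.30. Rescaling to the sum of WT left 6 fallen and a median of -0.20. Against genes of similar level 19 fell and the median was -0.34, and with a pseudocount of 0.1, 26 fell. Zfp990, the highest of the 12 in WT, was at 144 in WT, 54.7 in Ldhb_KO, 100.1 in SO and 106 in Ldha_KO, a difference of -1.38, and its neighbours on chromosome 4, Gm13212 and Zfp980, also fell, with 12.2 in WT and 5.50 in Ldhb_KO (-1.03) and 52.9 in WT and 21.6 in Ldhb_KO (-1.25). Gm13212 was within the rule (-0.93) on rescaling. Genes of this family often share sequence, so values of single members are uncertain.

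By deposited value, the 4 largest rises were in abundant genes within the rule: Mt2, Mt1, Aldoa and Ldha. Mt2 and Mt1, metallothioneins that bind zinc and copper, were at 2188 in WT, 3481 in Ldhb_KO, 1124 in SO and 3834 in Ldha_KO, a difference of 0.67, and at 1506 in WT, 2354 in Ldhb_KO, 911 in SO and 2899 in Ldha_KO, a difference of 0.64. Both were higher in each knockout than in WT and lower in SO. Of the 10 largest rises in value, the 3 past the rule were the glucose transporters Slc2a1 and Slc2a3 and H1f0. H1f0, a replication-independent linker histone, was at 98.5 in WT, 334 in Ldhb_KO, 91.4 in SO and 119 in Ldha_KO, a difference of 1.75. Eef1a1, a translation elongation factor, and Hsp90ab1, a chaperone, had the largest falls in value, with 8044 in WT and 7319 in Ldhb_KO (-0.14) and 3936 in WT and 3058 in Ldhb_KO (-0.36), both within the rule.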

How the data were processed

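RNA sequencing values of 4 libraries were used, 1 for each group of the labels. The authors deposited 1 value per gene symbol and library. The unit is not named, and the deposited values were read as FPKM because library totals differ, few values are whole and the step between low values varies from gene to gene. RPKM would look the same. Per the submitters' processing notes, mm9 was the genome build and edgeR 3.26.8, HTSeq 0.11.2, SAMtools 1.9 and Bowtie2 2.3.4.3 were used. The sources used here give neither the role of each tool nor the annotation.

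From these values the difference of log2(FPKM + 1) was computed in Python 3.11.15 with numpy 2.4.6 and pandas 2.3.3, over genes with at least 1 in WT or Ldhb_KO. A gene passed the rule at a difference of 1 in size. There was no test across genes, since 1 library per group allows none. The arithmetic was tested on simulated data.

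The members and the 46 gene lists were chosen with earlier results of these data known. Of 1115 listed symbols 1108 were found, 21 of them through synonyms of the RefSeq table for GRCm38.p6, which also gave chromosomes and upstream sequences. The genes named were Ldhb, Ldha, Ldhc and Hdac1, the 15 highest and 15 lowest differences among genes with at least 5 in the higher library, the 10 largest rises and falls in value, up to 5 members per role past the rule (else the 2 largest differences), and a set of pluripotency, hypoxia and amino acid genes. Other genes were chosen after their values were seen. Not every gene that this rule names is described, and 1 gene is not reported here. Relative depth came from genes below 0.2 in both libraries, of which 69.4% gave a Ldhb_KO to WT ratio that matched whole reads to within 0.2%, against 1.17% with the step moved by 5%. The rough depth used transcript lengths of GENCODE, another annotation. Alternatives were a pseudocount of 0.1, no filter, a filter of 5, and rescaling to the sum of WT or to a median log2 ratio of 0. Comparison with the median of 8 bins of similar level was added after seeing the data.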

Additional observations from a re-analysis of the deposited data

How the results depend on the processing

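With a pseudocount of 0.1 in place of 1, 1087 genes rose and 287 fell, and with a filter of at least 5, which tested fewer genes (9438), 251 rose. Under the other settings the counts stayed within 1.5 times those reported: 629 rose and 99 fell when rescaled to the sum of WT, 629 and 98 when rescaled to a median log2 ratio of 0, and 327 and 204 against genes of similar level. Of 109 named genes past the rule, 6 lost the call under either rescaling (Hsph1, Spry2, Etv1, Ccnd1, Otx2 and Zfp534) and 12 against genes of similar level, and 0 changed sign. No paired analysis was possible because each group has 1 library, whose replicate number is only a name. Genes near the value of 1 fragment, about 0.087 on a transcript of 1 kb by a rough estimate, rest on few reads.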

Other observations

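In all, 11 genes reached at least 5 in Ldhb_KO from below 1 in WT, Tap1, Car12 and Amd1 among them, and 1, Erdr1, went the other way. The 11 also include Wfdc10, a secreted protease inhibitor family gene, at 0.765 in WT, 7.77 in Ldhb_KO, 2.56 in SO and 5.92 in Ldha_KO, a difference of 2.31. Pygl, the glycogen phosphorylase of liver, was at 0.753 in WT, 6.36 in Ldhb_KO, 4.93 in SO and 4.16 in Ldha_KO, a difference of 2.07. Coro2a, an actin-binding coronin, was at 0.613 in WT, 5.16 in Ldhb_KO, 1.86 in SO and 2.65 in Ldha_KO, a difference of 1.93, and Gch1, the first enzyme of tetrahydrobiopterin synthesis, at 0.914 in WT, 5.30 in Ldhb_KO, 2.06 in SO and 2.22 in Ldha_KO, a difference of 1.72. In each of these 4, SO and Ldha_KO also lay above WT and below Ldhb_KO.

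Noncoding RNA genes were more often past the rule than coding genes: 8.31% of 337 kept long noncoding RNA genes rose and 3.56% fell, against 3.29% and 1.002% of 12275 coding genes. Their lower levels were not matched. Of 19 kept MHC genes named H2-, picked out by symbol after the values were seen, 5 rose and 0 fell, with a median of 0.81, and 7 were kept through Ldhb_KO alone. Against genes of similar level 3 rose and the median was 0.54, with a pseudocount of 0.1, 10 rose, and without the filter the median of all 44 was 0.15. Psmb9, Tap1, Tap2 and H2-Ab1 stood next to each other on chromosome 17 among kept genes, all risen. Of these, Tap1 was kept through Ldhb_KO alone (0.965 in WT), and Tap2 was within the rule (0.88) against genes of similar level. H2-Ab1, an MHC class II chain, was at 1.998 in WT, 8.60 in Ldhb_KO, 5.27 in SO and 4.92 in Ldha_KO, a difference of 1.68. Chromosomes differed little: over the 8529 genes with at least 5 in both libraries, the medians of 20 chromosomes lay between -0.16 and -0.07.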
